A study of Homo sapiens with 50 samples.

Results

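The enzyme genes of serine, asparagine, proline, cysteine and one-carbon synthesis were followed in H1, an established line of human embryonic stem cells, before and during differentiation toward mesendoderm and heart muscle. The genes are PHGDH, PSAT1, PSPH, SHMT1, SHMT2, MTHFD2, ASNS, ALDH18A1, PYCR1 and CTH, chosen by symbol. Each matched 1 row in both deposited tables, so the group holds 10 of 57905 genes. The study comprised 50 RNA libraries in 25 groups, with 2 libraries in each. On each of days 3, 5, 7 and 11 there were cultures with IWP2, NaHCO3 and 2-DG together, with IWP2 and NaHCO3, with IWP2, with NaHCO3, with HCl, and a differentiation control. Undifferentiated cells stand for day 0. All cells were labelled wild type, and every 2-DG culture also carried IWP2 and NaHCO3. IWP2 blocks the secretion of WNT proteins, NaHCO3 (sodium bicarbonate) is a base, HCl is an acid, and 2-DG (2-deoxyglucose) resembles glucose and inhibits its breakdown by glycolysis. Doses, times of addition and pH readings are not in the labels. Neither do the labels say whether the 2 replicates of a group were separate cultures, so p-values here reflect only how far these libraries differ, and that spread may be technical.

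Serine is made from the glycolytic intermediate 3-phosphoglycerate in a chain of steps. PHGDH oxidises it, PSAT1 adds an amino group taken from glutamate, and PSPH removes the phosphate. SHMT2 in mitochondria and SHMT1 in the cytosol turn serine into glycine and pass its side-chain carbon to tetrahydrofolate, and MTHFD2 oxidises that folate-bound carbon in mitochondria. ASNS makes asparagine from aspartate with the amide of glutamine. ALDH18A1 and PYCR1 act early and late on the route from glutamate to proline, and CTH releases cysteine from cystathionine. Several of these genes are textbook targets of ATF4, the transcription factor of the integrated stress response, which cells raise when amino acids are short or when protein folding in the endoplasmic reticulum fails.

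On GRCh37, the build of the deposited tables, ASNS lies at chr7:97481430-97501854 on the minus strand and PSPH on the same chromosome at 56078744-56119297, also minus. PHGDH (120202421-120286838) and CTH (70876901-70905534) lie on the plus strand of chromosome 1. PSAT1 lies at chr9:80912059-80945009 (plus), SHMT2 at chr12:57623110-57628718 (plus), MTHFD2 at chr2:74425689-74444692 (plus) and ALDH18A1 at chr10:97365696-97416463 (minus). SHMT1 (18231187-18266856) and PYCR1 (79890260-79900288) lie on the minus strand of chromosome 17. All 10 had at least 1 FPKM (counts scaled for exonic length and library total) in each of the 50 libraries, and the lowest count of any of them was 58, for CTH. The share of PSPH reads is uncertain, because its near-copy PSPHP1 was listed at 8.6 to 75.53 FPKM and at up to 356 counts. PYCR1 overlaps MYADML2 on the same strand, which reached 6.07 FPKM and 265 counts in a library. Copies of the other genes had at most 12 counts, in ASNSP3. SHMT2 and MTHFD2 overlap NDUFA4L2 and SLC4A5 on the opposite strand, which reached 71 and 45 counts in a library, and strand use in counting is not given in the sources used here.

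The promoters of 3 genes that moved together in the results below (ASNS, MTHFD2, PSAT1) and of PHGDH, which did not follow them, are shown here because ATF4 with a C/EBP partner is known to bind a short composite element. Sequences are from RefSeq on GRCh38.p14, not the build of the counts, and run from 250 bases before the annotated start to 50 after it, 5′ to 3′ on the gene's strand. Capitals mark a match to TGATGNAA, searched on both strands.
ASNS, chr7:97872359-97872658, minus strand: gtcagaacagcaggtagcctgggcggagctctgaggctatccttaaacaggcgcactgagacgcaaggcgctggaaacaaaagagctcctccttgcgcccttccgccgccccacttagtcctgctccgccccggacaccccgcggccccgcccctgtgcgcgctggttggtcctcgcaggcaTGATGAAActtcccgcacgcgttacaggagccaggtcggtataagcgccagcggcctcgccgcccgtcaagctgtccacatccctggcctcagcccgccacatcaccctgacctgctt
MTHFD2, chr2:74198365-74198664, plus strand: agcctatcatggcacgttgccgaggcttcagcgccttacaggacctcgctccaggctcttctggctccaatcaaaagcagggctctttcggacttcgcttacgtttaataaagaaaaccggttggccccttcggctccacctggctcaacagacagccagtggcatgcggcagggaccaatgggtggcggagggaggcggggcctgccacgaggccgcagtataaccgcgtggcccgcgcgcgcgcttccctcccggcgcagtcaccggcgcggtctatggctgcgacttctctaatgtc
PSAT1, chr9:78296875-78297174, plus strand: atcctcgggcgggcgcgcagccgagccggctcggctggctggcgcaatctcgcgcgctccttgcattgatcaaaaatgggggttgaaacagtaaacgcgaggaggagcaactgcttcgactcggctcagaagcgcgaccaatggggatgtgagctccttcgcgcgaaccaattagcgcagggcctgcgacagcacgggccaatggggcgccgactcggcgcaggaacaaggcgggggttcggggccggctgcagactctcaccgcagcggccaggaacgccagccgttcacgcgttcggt
PHGDH, chr1:119711684-119711983, plus strand: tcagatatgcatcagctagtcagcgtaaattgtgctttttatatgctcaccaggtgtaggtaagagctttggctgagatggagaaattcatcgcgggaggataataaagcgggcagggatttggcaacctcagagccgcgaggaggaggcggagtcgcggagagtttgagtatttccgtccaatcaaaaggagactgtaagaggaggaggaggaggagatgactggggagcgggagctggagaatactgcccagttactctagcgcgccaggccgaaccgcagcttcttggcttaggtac
The promoter table held 8 entries for 7 of the 10 genes. These were ASNS (2 entries), PHGDH, PSAT1, SHMT1, MTHFD2, ALDH18A1 and CTH. The ASNS entry above held the motif, as TGATGAAA on the gene's strand starting 68 bases before the start, and the other 7 entries held none. Of all 35116 promoters of this length, 3.62% held it. These letters are a description of the windows and not a test of binding.

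A library held 14794134 to 22796553 counts on days 3 and 5. On days 0, 7 and 11, which were deposited as a separate table, it held 14090004 to 20445875. Tests were made within a table with edgeR's quasi-likelihood test, and a gene is called below when its Benjamini-Hochberg adjusted p over all genes tested was under 0.05 and the size of its log2 fold change was 1 or more. Where levels of both tables stand beside each other, they are FPKM per library and were not tested. Markers of embryonic stem cells were high at day 0, where 6 pluripotency genes summed to 1831 and 1845 FPKM, and were at 12 to 44 FPKM on day 11. The 2 libraries with 2-DG on day 3 lay apart from each other, with PHGDH at 185.81 and 141.52 FPKM and a summed level of ATF4, 8 of its other known targets and MYC of 500 and 370 FPKM. Each result of days 3 and 5 was therefore also fitted without them where it did not compare them.

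The 10 genes spanned different ranges over the 25 groups. ASNS had the widest, 48.1-fold between its highest and lowest group mean, with 114.63 and 115.1 FPKM in 2-DG cultures of day 5 and 2.4 and 2.38 FPKM in NaHCO3 cultures of day 7. Its next highest groups were 2-DG cultures of day 3 (68.71 and 58.03 FPKM), undifferentiated cells (48.14 and 47.62 FPKM) and HCl cultures of day 5 (42.45 and 41.32 FPKM), and none of these 4 groups overlapped its neighbour. The other groups were at or under 30.34 FPKM, and of all 24 pairs of neighbours in the ASNS order 12 overlapped. The highest mean lay in 2-DG cultures of day 5 for 7 genes, ASNS, PHGDH, PSAT1, PSPH, SHMT2, MTHFD2 and PYCR1. SHMT1 was highest in NaHCO3 cultures of day 3 (10.27 and 10.08 FPKM), ALDH18A1 in HCl cultures of day 3 (45.91 and 48.09 FPKM) and CTH in HCl cultures of day 5 (12.94 and 13.52 FPKM). The lowest mean lay on day 11 for 5 genes: PHGDH, SHMT1 and ALDH18A1 with 2-DG, and PSAT1 and SHMT2 with HCl. The libraries of the highest group overlapped those of the next for PHGDH and ALDH18A1, as did those of the lowest group for SHMT2.

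**Figure D1:**
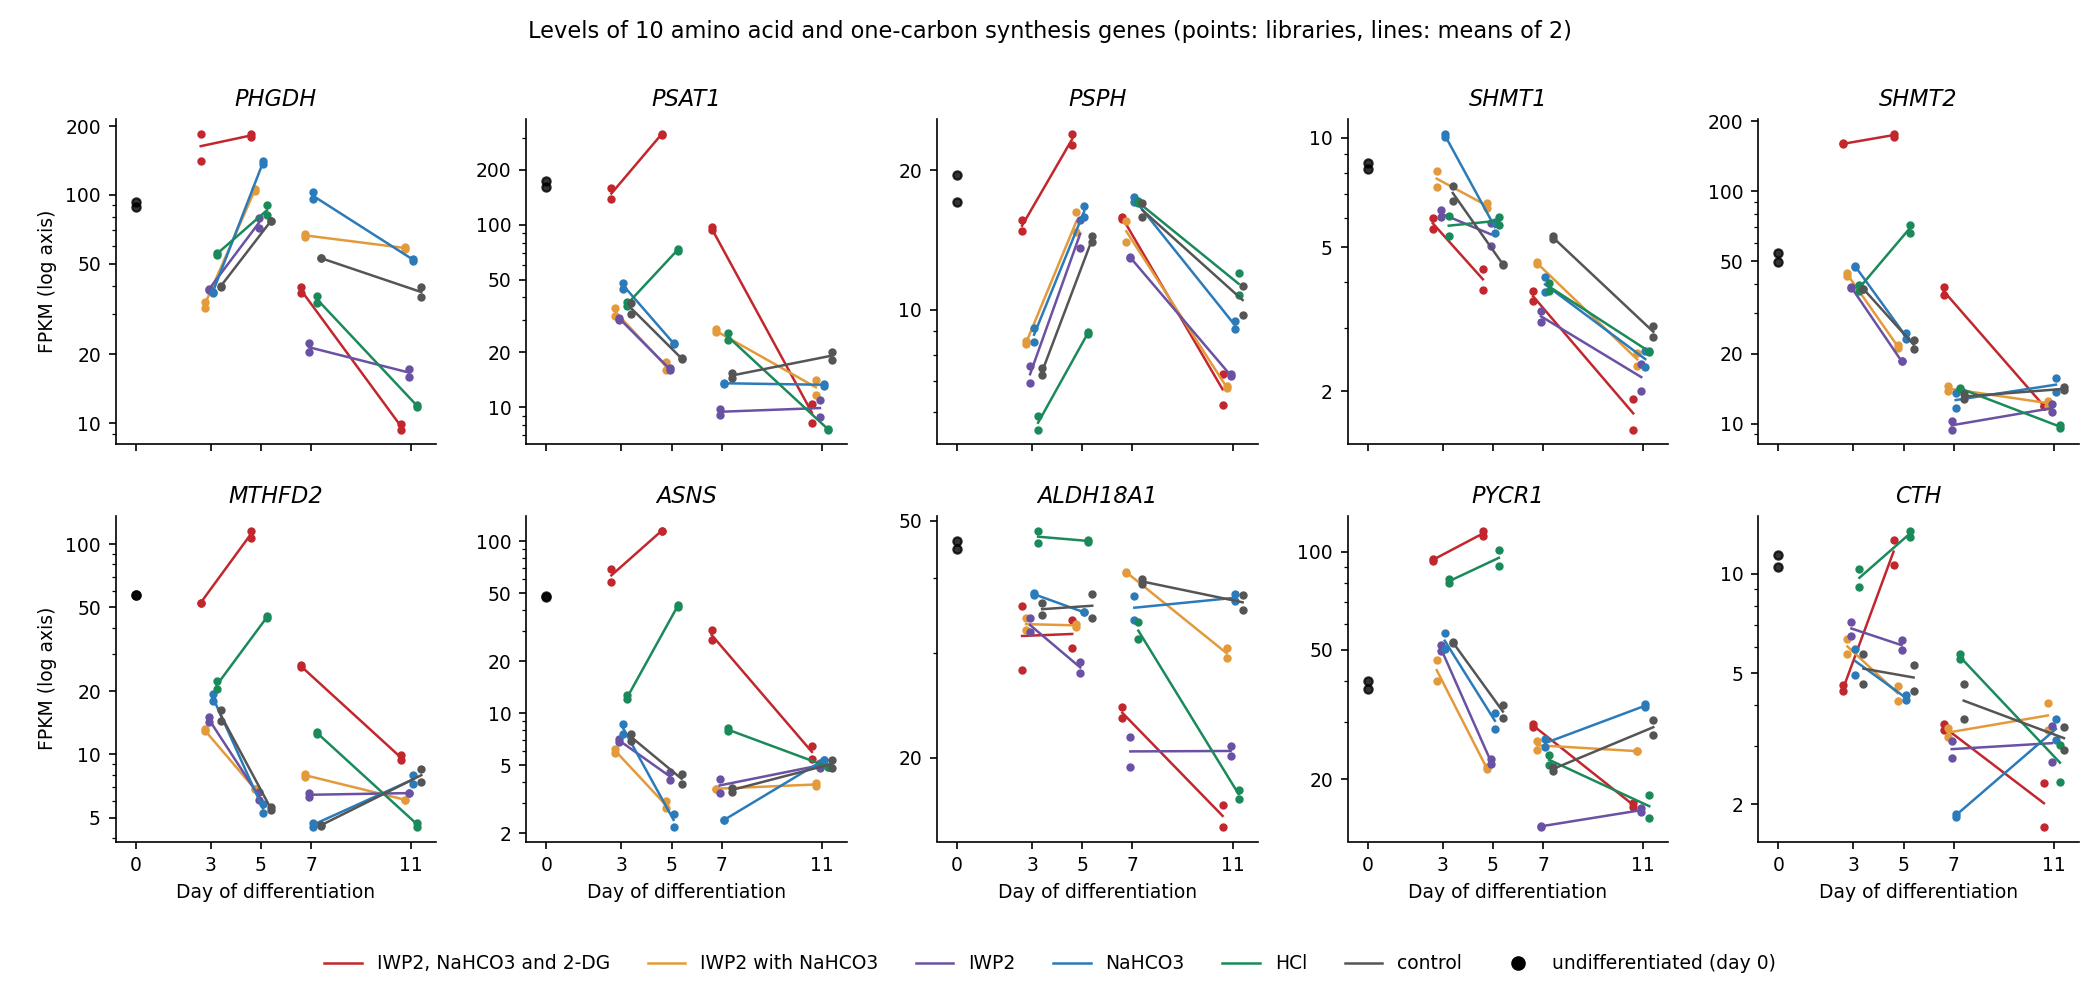
FPKM of each gene (log axis) against day, with 1 point per library, lines joining the means of 2 libraries within a deposited table, and black points for undifferentiated cells. ASNS, PSAT1, MTHFD2 and SHMT2 stand highest in 2-DG cultures of day 5 (114.63 and 115.1 FPKM for ASNS), while ALDH18A1 and SHMT1 do not.

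On day 5, adding 2-DG to IWP2 and NaHCO3 was accompanied by higher ASNS, PSAT1, MTHFD2, SHMT2, PYCR1 and CTH, 6 of 10 genes, where 16.5% of all genes tested were called. ASNS, the asparagine-forming enzyme, had 114.63 and 115.1 FPKM with 2-DG, against 3.07 and 2.81 FPKM without it. Both 2-DG libraries stood far above both others, and the log2 fold change was 5.46 ± 0.15 (SE; n = 2 libraries a group; edgeR adjusted p = 2.48e-15). PSAT1, the aminotransferase of serine synthesis, had 316.47 and 310.72 FPKM with 2-DG, against 17.74 and 16.06 FPKM without it (log2 fold change 4.38 ± 0.10). MTHFD2, which oxidises the folate-bound carbon in mitochondria, had 107.27 and 115.72 FPKM, against 6.81 and 6.88 FPKM (4.20 ± 0.11). The levels of SHMT2 were 176.95 and 171.76 FPKM with 2-DG, against 21.87 and 21.25 FPKM without it (3.19 ± 0.10). None of these groups overlapped. PYCR1, the last enzyme of proline synthesis, rose by 2.57 ± 0.11 and CTH by 1.59 ± 0.15 on the log2 scale.

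The remaining 4 genes of day 5 were not called. PHGDH, the first enzyme of serine synthesis, had 185.06 and 179.63 FPKM with 2-DG, against 103.94 and 106.58 FPKM without it, a log2 fold change of 0.96 ± 0.13 (edgeR adjusted p = 5.19e-06) that stayed just under the fold limit. Its libraries did not overlap, and its level without 2-DG was already high. PSPH had a log2 fold change of 0.76 ± 0.10, the cytosolic SHMT1 one of -0.51 ± 0.12 and ALDH18A1 one of 0.12 ± 0.09. The ratio of mean FPKM of the mitochondrial SHMT2 to the cytosolic SHMT1 was 42.8 with 2-DG, against 3.32 without it, and had a median of 5 over the 25 groups. The median log2 fold change of the 10 genes was 2.08, against -0.01 over all genes tested.

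With 2-DG on day 3, PHGDH, PSAT1, SHMT2, MTHFD2, ASNS and PYCR1 rose, 6 of 10 genes against 3.59% of all genes. PHGDH had 185.81 and 141.52 FPKM with 2-DG, against 34.08 and 32.08 FPKM without it (log2 fold change 2.46 ± 0.14, edgeR adjusted p = 3.93e-10). ASNS had 68.71 and 58.03 FPKM, against 6.17 and 5.9 FPKM (3.54 ± 0.14). PSAT1 rose by 2.30 ± 0.10, MTHFD2 by 2.16 ± 0.10, SHMT2 by 2.01 ± 0.09 and PYCR1 by 1.27 ± 0.11 on the log2 scale. PSPH, which completes serine synthesis, had 15.59 and 14.78 FPKM with 2-DG, against 8.42 and 8.54 FPKM without it, and its log2 fold change of 0.99 ± 0.11 was not called. Leaving out the 2-DG library of replicate 2 took PSPH to 1.10 and past the limit. The number called was 6 or 7 whichever of the 4 libraries of this comparison was left out.

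On day 7, 4 genes were called higher with 2-DG, against 16.3% of all genes. ASNS had 26.69 and 30.34 FPKM with 2-DG, against 3.65 and 3.63 FPKM without it (log2 fold change 3.05 ± 0.10, edgeR adjusted p = 5.94e-21). PSAT1 had 93.35 and 97.71 FPKM, against 25.78 and 26.73 FPKM (1.94 ± 0.09). MTHFD2 rose by 1.80 ± 0.08 and SHMT2 by 1.47 ± 0.08 on the log2 scale. PHGDH stood at 37.05 and 39.52 FPKM with 2-DG, against 67.35 and 65.7 FPKM without it, a log2 fold change of -0.72 ± 0.07 that was not called.

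By day 11, PHGDH was the only gene called with 2-DG, and it was lower, while 21.1% of all genes were called. It had 9.37 and 9.92 FPKM with 2-DG, against 58.13 and 58.92 FPKM without it, with no overlap (log2 fold change -2.58 ± 0.08, edgeR adjusted p = 2.58e-22). ASNS was at 6.47 and 5.45 FPKM with 2-DG against 3.78 and 3.93 FPKM without it (0.66 ± 0.10), and MTHFD2 at 9.89 and 9.37 FPKM against 6.08 and 6.08 FPKM (0.69 ± 0.08). Neither reached the fold limit. Leaving out the 2-DG library of replicate 1 took CTH to -1.13 and made it a second gene called lower. The effect of 2-DG differed between days when tested as an interaction. Day 5 minus day 3 was called in 7 genes, 6 higher and PHGDH lower (11.5% of all genes), and day 11 minus day 7 in 5 genes, all lower (9.64% of all genes).

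Markers of other cell types moved with 2-DG. On day 5, 4 of 6 heart muscle genes were higher (summed 922 and 817 FPKM with 2-DG, against 492 and 510 FPKM without it), 5 of 6 liver and foregut genes lower (31.4 and 23.2 FPKM, against 214 and 207 FPKM) and 3 of 4 fibroblast and matrix genes lower (405 and 460 FPKM, against 1526 and 1610 FPKM). Of 6 dividing-cell genes, 3 were also lower on day 5 (149 and 136 FPKM, against 270 and 266 FPKM). On day 7, 1 of these 6 was called higher and 0 lower (279 and 294 FPKM, against 186 and 198 FPKM). On days 3 and 11, 0 of the 6 were called. On day 7, all 6 heart muscle genes were higher, and all 6 liver and foregut and all 4 matrix genes were lower. On day 11, all 6 heart muscle genes were higher (summed 5813 and 5315 FPKM with 2-DG, against 330 and 345 FPKM without it), 5 of 6 liver and foregut genes were lower (143 and 147 FPKM, against 4140 and 3845 FPKM) and all 4 matrix genes were lower (312 and 408 FPKM, against 3157 and 3217 FPKM). Each heart muscle and matrix gene was above 0 in these groups. On day 3, none of 6 heart muscle genes, 1 of 6 liver and foregut genes and 1 of 4 matrix genes was called. The part of cell makeup in the results of days 5, 7 and 11 was not tested, and in bulk samples fewer cells of a type and less RNA per cell cannot be told apart.

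**Figure D2:**
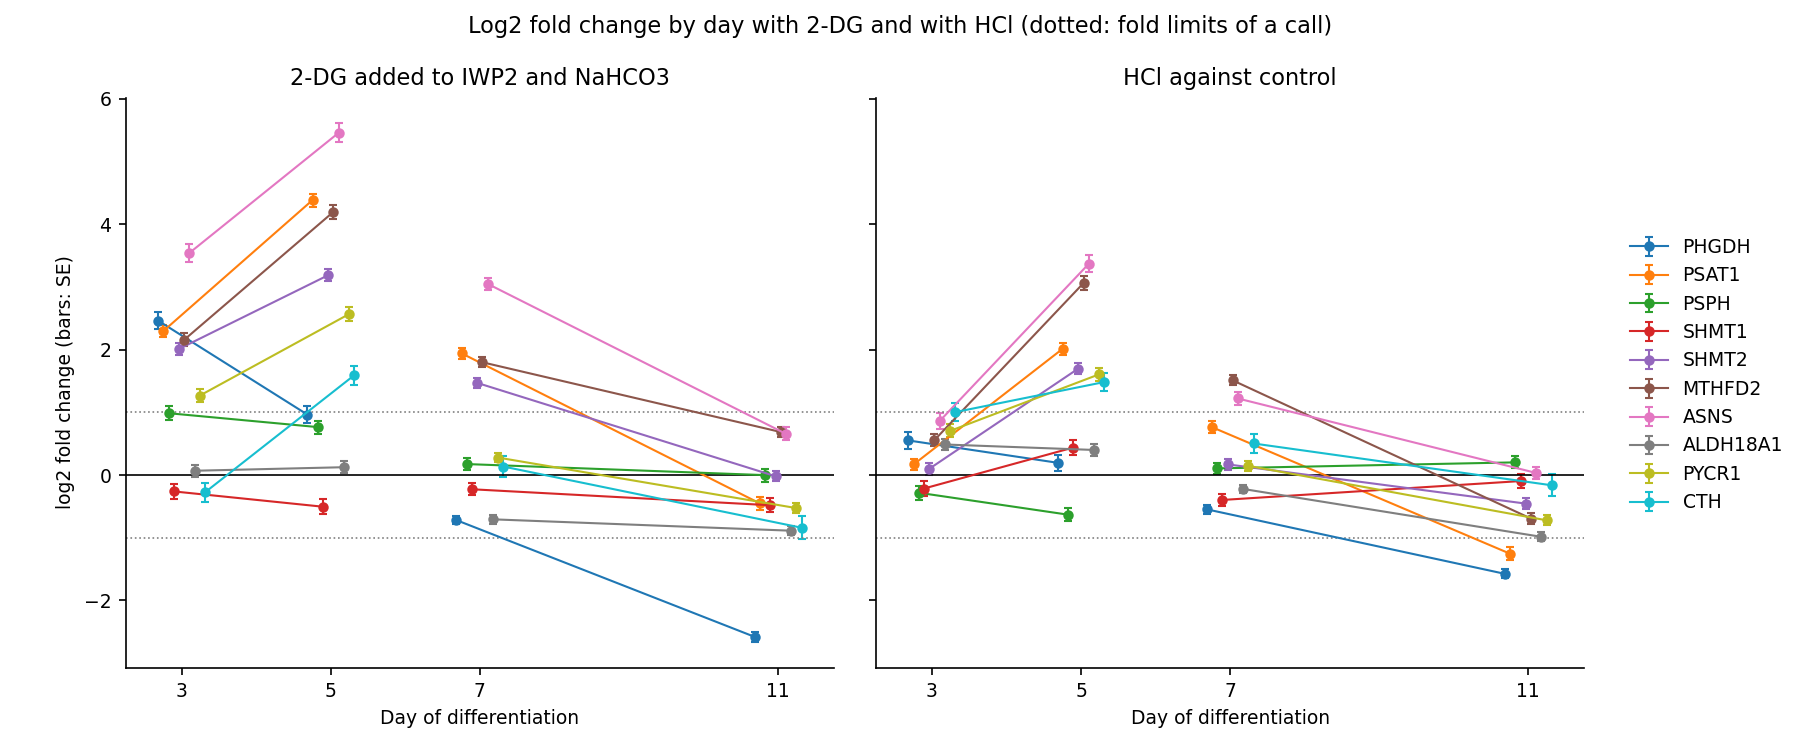
Log2 fold change of each gene (± SE) by day, for 2-DG added to IWP2 and NaHCO3 (left) and HCl against control (right), with the fold limits of a call as dotted lines and lines drawn only within a table. ASNS reaches 5.46 with 2-DG and 3.37 with HCl on day 5, and PHGDH ends at -2.58 and -1.58 on day 11.

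With HCl on day 5, ASNS, MTHFD2, PSAT1, SHMT2, PYCR1 and CTH were called higher, against 20.0% of all genes. These 6 genes were also the ones called with 2-DG on that day, where 16.5% of all genes were called. The number of all genes called higher in both comparisons was not counted. The comparisons share no library but come from the same fit, with a shared estimate of spread. ASNS had 42.45 and 41.32 FPKM with HCl, against 4.45 and 3.87 FPKM in the control (log2 fold change 3.37 ± 0.14, edgeR adjusted p = 2.55e-13). MTHFD2 had 45.31 and 44.48 FPKM, against 5.62 and 5.42 FPKM (3.06 ± 0.10). PSAT1 had 71.96 and 73.68 FPKM, against 18.47 and 18.54 FPKM (2.02 ± 0.10). Their HCl libraries lay well above those of the control. SHMT2 rose by 1.70 ± 0.09, PYCR1 by 1.61 ± 0.11 and CTH by 1.48 ± 0.15 on the log2 scale. PHGDH had 90.05 and 81.35 FPKM with HCl, against 77.13 and 76.65 FPKM in the control (0.20 ± 0.13, edgeR adjusted p = 0.241). PSPH stood lower, at 8.97 and 8.88 FPKM with HCl against 14.41 and 14.01 FPKM in the control (-0.63 ± 0.11), and was not called. The count of 6 held with each of the 4 libraries left out in turn and without the 2-DG libraries of day 3. The median log2 fold change of the 10 genes was 1.55, against -0.02 over all genes tested.

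Fewer genes were called with HCl on the other days. On day 3 only CTH was called (10.6% of all genes), at 10.32 and 9.15 FPKM with HCl against 4.62 and 5.7 FPKM in the control. Its log2 fold change of 1.00 ± 0.15 stood at the limit and was 0.98 without the 2-DG libraries of day 3, 0.84 without replicate 1 of the control and 0.91 without replicate 1 of HCl. ASNS had 12.7 and 12.17 FPKM, against 6.89 and 7.61 FPKM (0.86 ± 0.13), without a call. On day 7, ASNS (8.19 and 7.89 FPKM with HCl, against 3.67 and 3.49 FPKM in the control, log2 fold change 1.22 ± 0.10) and MTHFD2 (12.49 and 12.81 FPKM, against 4.63 and 4.58 FPKM, 1.51 ± 0.08) were called higher, with 14.3% of all genes. On day 11, PHGDH and PSAT1 were called lower, with 21.1% of all genes. PHGDH had 11.72 and 12.04 FPKM with HCl, against 35.64 and 39.42 FPKM in the control (-1.58 ± 0.07, edgeR adjusted p = 9.29e-18). PSAT1 had 7.54 and 7.61 FPKM, against 18.22 and 20.13 FPKM (-1.25 ± 0.10). ALDH18A1, at 17.08 and 17.67 FPKM with HCl against 35.43 and 37.51 FPKM in the control, had a log2 fold change of -0.99 ± 0.07. It passed the limit, at -1.05 and -1.01, without replicate 1 of the control or without replicate 2 of HCl.

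Tested as an interaction, the HCl effect was larger on day 5 than on day 3 in 4 genes (16.4% of all genes called) and lower on day 11 than on day 7 in 4 genes (17.1%). Dividing-cell and cell-type markers moved as well. On day 3, the 6 dividing-cell genes summed to 188 and 171 FPKM with HCl, against 443 and 454 FPKM in the control, with 5 of 6 called lower. On day 5 they summed to 263 and 286 FPKM with HCl, against 161 and 159 FPKM in the control. Of the 6, 1 was called higher on that day, and all 6 were called higher in the interaction of days 5 and 3. On day 7, 0 of 6 were called, and on day 11, 2 of 6 were called lower. The 6 pluripotency genes summed to 696 and 813 FPKM with HCl on day 3, against 416 and 479 FPKM in the control. On day 5, 4 of 6 pluripotency genes were higher with HCl (summed 427 and 430 FPKM, against 314 and 294 FPKM) and 5 of 6 liver and foregut genes lower (8.7 and 9.17 FPKM, against 248 and 288 FPKM). Of the matrix genes, 3 of 4 were lower on that day (45.6 and 44.9 FPKM with HCl, against 733 and 848 FPKM in the control), as were 2 of 6 heart muscle genes (327 and 338 FPKM, against 518 and 514 FPKM). On day 7, 5 of 6 heart muscle genes were higher with HCl (980 and 1350 FPKM, against 409 and 465 FPKM in the control) and 3 of 6 pluripotency genes were higher (279 and 259 FPKM, against 187 and 182 FPKM). All 6 liver and foregut genes were lower on day 7 (35.7 and 44.5 FPKM, against 954 and 987 FPKM), as were 3 of 4 matrix genes (388 and 361 FPKM, against 2263 and 2153 FPKM). The heart muscle genes of day 11 summed to 5712 and 5784 FPKM with HCl, against 577 and 809 FPKM in the control, with 6 of 6 called higher. All 6 liver and foregut genes (183 and 306 FPKM, against 4064 and 4843 FPKM) and all 4 matrix genes (315 and 327 FPKM, against 2839 and 2835 FPKM) were lower on day 11. Their part in these results was not tested.

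**Figure D3:**
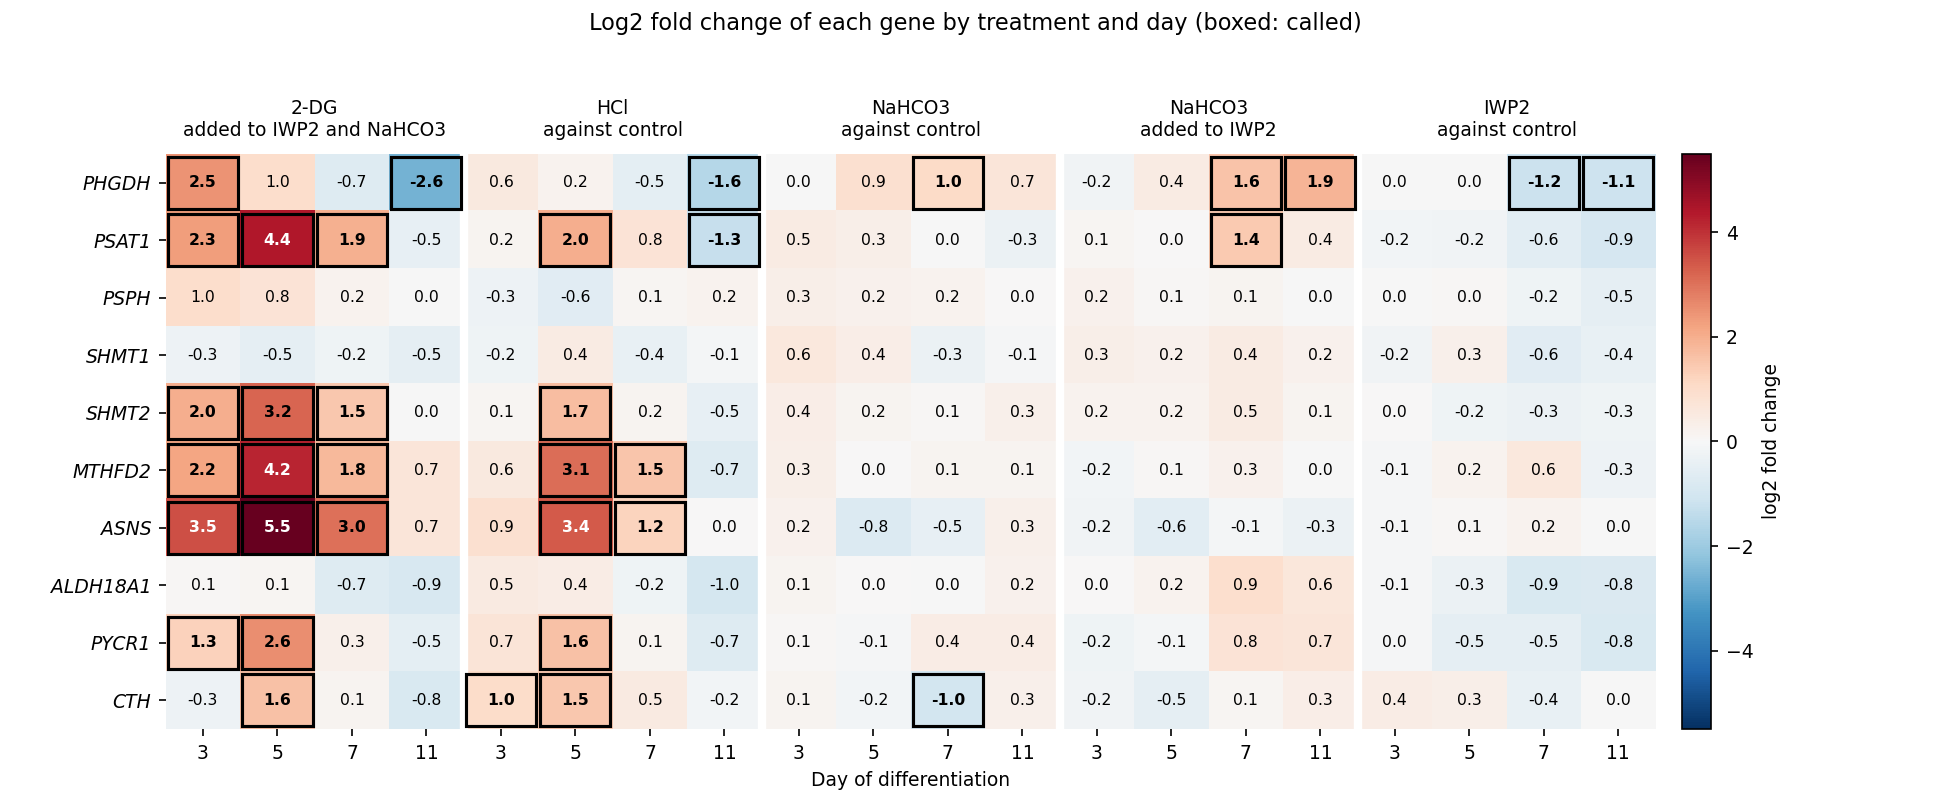
Log2 fold change of the 10 genes (rows) in 20 treatment comparisons (columns, grouped by comparison and ordered by day), with called values boxed. The boxed values gather in 2-DG on days 3 to 7 and HCl on day 5, and the PHGDH row also has boxed values in the NaHCO3 and IWP2 columns.

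In the 12 comparisons of NaHCO3 and of IWP2, PHGDH was called in 5, more often than any other of the 10 genes. In each of those 5, only 1 or 2 of the 10 genes were called, against 10.2% to 18.5% of all genes. The group thus did not stand far from all genes there. With IWP2 alone it was lower on day 7, at 20.55 and 22.46 FPKM with IWP2 against 52.96 and 52.72 FPKM in the control (log2 fold change -1.20 ± 0.07, edgeR adjusted p = 3.5e-15, 16.4% of all genes called). On day 11 it had 17.29 and 16.0 FPKM with IWP2, against 35.64 and 39.42 FPKM in the control (-1.15 ± 0.07, 14.9% of all genes called). No other gene of the 10 was called with IWP2 on either day. PSAT1 on day 11 had -0.93 ± 0.10, which became -1.03 without replicate 1 of the control and -1.09 without replicate 1 of IWP2. On days 3 and 5, 0 of 10 genes were called by edgeR with IWP2, where 0.613% and 6.77% of all genes were. At an adjusted p alone, 0 genes passed on day 3 and 2 on day 5 (ALDH18A1 and PYCR1, at -0.34 and -0.50).

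NaHCO3 given with IWP2 went with the opposite PHGDH difference. On day 7, PHGDH had 67.35 and 65.7 FPKM with both, against 20.55 and 22.46 FPKM with IWP2 alone (log2 fold change 1.57 ± 0.07, edgeR adjusted p = 9.33e-18). PSAT1 had 25.78 and 26.73 FPKM with both, against 9.09 and 9.78 FPKM with IWP2 alone (1.42 ± 0.10). These 2 genes were called, with 16.7% of all genes. ALDH18A1 had 0.94 ± 0.07 and passed the limit, at 1.03, without replicate 2 of IWP2. On day 11, PHGDH had 58.13 and 58.92 FPKM with both, against 17.29 and 16.0 FPKM with IWP2 alone (1.88 ± 0.07), and was the 1 gene called (18.5% of all genes). On days 3 and 5 none was called by edgeR (3.19% and 5.81% of all genes), and 0 and 3 passed at an adjusted p alone. These comparisons share the libraries with IWP2 and NaHCO3 with those of 2-DG, and the libraries with IWP2 with those of IWP2 against control.

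Against the control, NaHCO3 alone gave 2 calls, both on day 7. On day 7, PHGDH had 102.65 and 95.7 FPKM with NaHCO3, against 52.96 and 52.72 FPKM in the control (log2 fold change 1.03 ± 0.07, edgeR adjusted p = 2.55e-13), and was called. CTH had 1.83 and 1.87 FPKM with NaHCO3, against 4.62 and 3.63 FPKM in the control (-1.03 ± 0.18, edgeR adjusted p = 2.88e-05), and was called lower, where 10.2% of all genes were called. Both lay near the limit: PHGDH had 0.96 without replicate 1 of NaHCO3, and CTH had -0.85 without replicate 1 of the control. The difference for CTH changed between days 7 and 11 (interaction 1.32 ± 0.25, 1 gene of 10 called, 11.4% of all genes). On days 3, 5 and 11 none of the 10 was called by edgeR, with 4.08%, 6.39% and 16.9% of all genes called. Of the 10, 4, 4 and 6 passed at an adjusted p alone. PHGDH was at 136.48 and 140.35 FPKM with NaHCO3 on day 5, against 77.13 and 76.65 FPKM in the control (0.89 ± 0.13), and at 52.54 and 51.4 FPKM on day 11, against 35.64 and 39.42 FPKM (0.67 ± 0.07). No gene was called in the interaction of days 5 and 3 for NaHCO3 (5.99% of all genes), where 2 passed at an adjusted p alone and ASNS had -0.97 ± 0.19. It passed the limit, between -1.04 and -1.11, without replicate 2 of the control on day 3 or day 5, replicate 1 of NaHCO3 on day 3 or replicate 2 of NaHCO3 on day 5. None was called in either interaction for IWP2 (4.52% and 5.79% of all genes), where 0 and 2 passed at an adjusted p alone.

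The groups with low PHGDH on day 11 were also those with high heart muscle genes. Their 6 heart muscle genes summed to 5813 and 5315 FPKM with 2-DG, 5712 and 5784 FPKM with HCl, and 3816 and 3902 FPKM with IWP2, where PHGDH was at 9.37 to 17.29 FPKM. The other 3 groups of that day, NaHCO3, IWP2 with NaHCO3 and the control, had 74 to 809 FPKM of heart muscle genes and 35.64 to 58.92 FPKM of PHGDH. In those 3 groups the 4 fibroblast and matrix genes summed to 2835 to 5968 FPKM, against 312 to 611 FPKM in the groups with low PHGDH. Liver and foregut genes divided the groups of day 11 in the same way, at 3418 to 4843 FPKM against 126 to 306 FPKM. On day 7, heart muscle genes summed to 6123 and 5619 FPKM with IWP2, against 409 and 465 FPKM in the control, and NaHCO3 cultures had both the highest PHGDH (102.65 and 95.7 FPKM) and the highest matrix sum (5394 and 4930 FPKM) of that day. With 2-DG on day 7 the heart muscle sum was 3795 and 3730 FPKM (PHGDH 37.05 and 39.52). With HCl it was 980 and 1350 FPKM (PHGDH 36.14 and 33.66). On day 5 the pairing did not hold in all groups. PHGDH was highest with 2-DG (185.06 and 179.63 FPKM, heart muscle sum 922 and 817). PHGDH with IWP2 (78.94 and 71.98 FPKM, sum 996 and 831) was near the control (77.13 and 76.65 FPKM, sum 518 and 514). NaHCO3 had PHGDH at 136.48 and 140.35 FPKM (sum 114 and 112). The part of cell makeup in the PHGDH results was not tested. ALDH18A1 varied with PHGDH over the 13 groups of days 0, 7 and 11 (Pearson r = 0.91 between group means of log2(FPKM + 1)), while r was -0.21 over the 12 groups of days 3 and 5.

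Most of these genes were lower in control cultures of days 7 and 11 than in undifferentiated cells. Control cultures of day 7 had 3.67 and 3.49 FPKM of ASNS, against 48.14 and 47.62 FPKM in undifferentiated cells (log2 fold change -3.91 ± 0.10, edgeR adjusted p = 3.25e-25). MTHFD2 had 4.63 and 4.58 FPKM on day 7, against 57.5 and 57.57 FPKM (-3.81 ± 0.08), and PSAT1 had 15.37 and 14.46 FPKM, against 173.07 and 161.34 FPKM (-3.66 ± 0.09). SHMT2 fell by 2.16, CTH by 1.58 and PYCR1 by 1.03 on the log2 scale. In all, 6 of 10 genes were called lower and 0 higher, where 34.9% of all genes were called. PYCR1 lay at the limit and had -0.999 without replicate 1 of the undifferentiated cells and -0.96 with no filter on low values, both short of a call.

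On day 11, 7 of the 10 genes were called lower in the control than in undifferentiated cells, where 39.4% of all genes were called. PHGDH (35.64 and 39.42 FPKM on day 11, against 93.57 and 88.28 FPKM, -1.38 ± 0.07) and SHMT1 (2.82 and 3.02 FPKM, against 8.54 and 8.2 FPKM, -1.62 ± 0.10) were called, and PYCR1 (-0.54 ± 0.07) was not. PSPH had -0.90 ± 0.09 and passed the limit, at -1.04, without replicate 2 of the control of day 11. None was called between days 11 and 7 of the control by edgeR (10.4% of all genes), and 7 passed at an adjusted p alone. Between days 5 and 3 of the control, MTHFD2 was called lower, at 5.62 and 5.42 FPKM on day 5 against 14.48 and 16.26 FPKM on day 3 (-1.43 ± 0.10), while PHGDH (1.00 ± 0.13) and PSPH (1.00 ± 0.11) were called higher at the limit, with 18.1% of all genes. Without the 2-DG libraries of day 3, or without replicate 1 of the control on day 3 or on day 5, PHGDH had 0.995, 0.982 and 0.996 and PSPH had 0.998, 0.966 and 0.982, all under the limit. Pluripotency genes summed to 187 and 182 FPKM in the control of day 7, against 1831 and 1845 FPKM at day 0, and dividing-cell genes to 233 and 235 FPKM, against 619 and 655 FPKM. Their part in the differences was not tested.

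The 10 genes followed more than a single pattern. ASNS, PSAT1, SHMT2 and MTHFD2 varied together, with Pearson r between group means of log2(FPKM + 1) of 0.95 to 0.98 over the 12 groups of days 3 and 5, and of 0.89 to 0.97 over the 13 groups of days 0, 7 and 11. Groups share treatments, tables and days, so these values describe the groups and are not tests. Ranked by the smaller of the 2 r with ASNS among 16156 genes, MTHFD2 came at rank 1, SHMT2 at rank 4 and PSAT1 at rank 9. CTH came at rank 137 and PYCR1 at rank 364. PSPH (rank 1887), PHGDH (2424), ALDH18A1 (2627) and SHMT1 (8386) followed ASNS less closely. Outside the 10, the 5 genes most like ASNS were SLC7A11, the cystine transporter (smaller r = 0.94), CHAC1, which breaks down glutathione (0.94), SLC7A1, a transporter of cationic amino acids (0.92), XPOT, which exports transfer RNA from the nucleus (0.92), and EIF2S2P4 (0.90). The symbol EIF2S2P4 is that of a pseudogene of EIF2S2, and its reads may come from that gene, whose smaller r was 0.90. ATF4 itself had r = 0.93 with ASNS on days 3 and 5 and 0.22 on days 0, 7 and 11 (rank 1823). Among its other targets, DDIT3 had 0.83 and -0.46 (rank 10601), ATF5 0.83 and 0.34 (1105) and ATF3 0.40 and -0.30 (8027). SLC3A2 had 0.92 and 0.66 (rank 106), TRIB3 0.88 and 0.60 (199) and SESN2 0.84 and 0.57 (271).

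**Figure D4:**
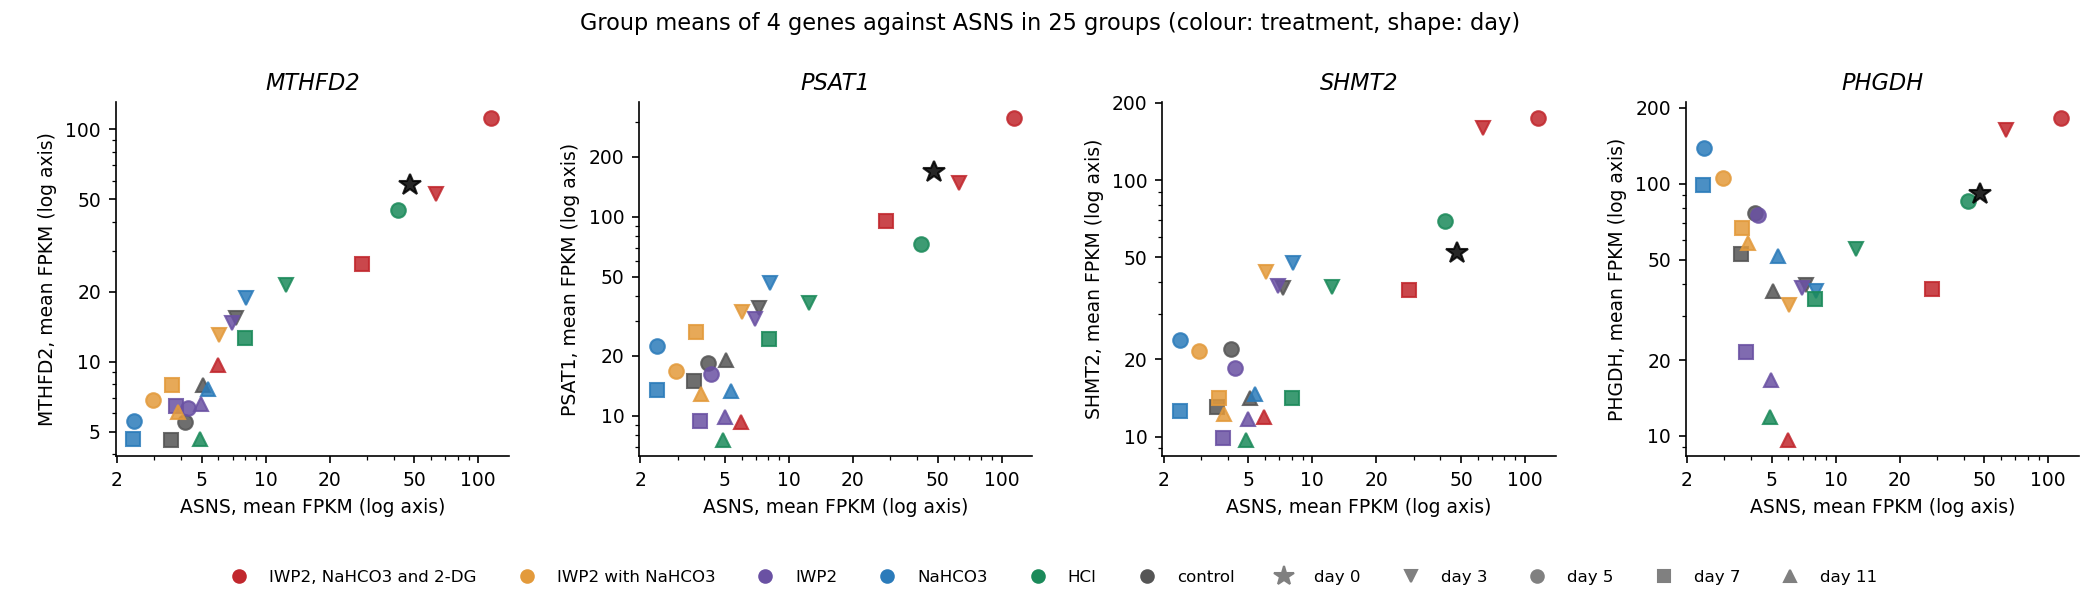
Mean FPKM of MTHFD2, PSAT1, SHMT2 and PHGDH against that of ASNS in 25 groups (log axes, colour for treatment and shape for day). MTHFD2, PSAT1 and SHMT2 rise with ASNS across groups, and PHGDH ranges from 9.65 to 138 FPKM among groups in which ASNS is under 7 FPKM.

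ATF4, 8 of its other known targets and the growth regulator MYC were read beside the 10 enzymes. With 2-DG on day 5, all 10 of that list were called higher, ATF4 itself by 1.80 on the log2 scale, the transcription factor DDIT3 by 4.26, the pseudokinase TRIB3 by 6.73 and CHAC1 by 7.89. The median over the list was 3.84, against -0.01 over all genes. Of all genes, 16.5% were called in that comparison. With 2-DG, 9 of the list were higher on day 3 (3.59% of all genes called), 5 on day 7 (16.3%), and 1 higher and 2 lower on day 11 (21.1%). With HCl, 4 were higher on day 3 (10.6% of all genes called) and 9 on day 5 (20.0%). The 1 gene higher with HCl on day 7 and the 2 lower on day 11 lay near or under the share of all genes, which was 14.3% and 21.1%. NaHCO3 added to IWP2 had 2, 4 and 3 higher on days 5, 7 and 11 (5.81%, 16.7% and 18.5% of all genes). NaHCO3 alone had 1, 2 and 2 higher on those days (6.39%, 10.2% and 16.9%), and IWP2 had 1 lower on day 5 (6.77%). In the control of day 7 against undifferentiated cells, 5 of the list were lower and 1 higher (34.9%). ATF4 was not called with HCl on day 5 (log2 fold change 0.68, edgeR adjusted p = 0.00064). On day 7 with 2-DG, ASNS was called higher while the mean level of ATF4 was 117 FPKM, against 124 FPKM without 2-DG (log2 fold change -0.01). These are RNA levels, and the amount or activity of ATF4 protein was not tested.

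Of 31 other genes of the same pathways, 28 could be tested on days 3 and 5 and 29 on the other days. With 2-DG on day 5, 4 of 28 were called higher and 2 lower, where 16.5% of all genes were called, so the list did not stand far from all genes. The mitochondrial folate enzyme ALDH1L2 averaged 4.97 FPKM with 2-DG, against 0.09 FPKM without it. On days 3 and 5 it passed the filter on low values only through these 2-DG libraries of day 5, so its call there is no support for a rise. MTHFD1L, also of mitochondrial folate metabolism, rose (26.4 FPKM, against 4.59 FPKM, log2 fold change 2.69 ± 0.12), as did CBS, which forms cystathionine upstream of CTH (1.31 ± 0.09), and GOT1 (1.06 ± 0.09). GLDC, of the glycine cleavage system, fell by 2.09, and GLUL, which makes glutamine, fell by 1.48. MTHFD1L was also called higher with 2-DG on day 3 (1.27 ± 0.11), day 7 (1.30 ± 0.09) and day 11 (1.33 ± 0.10). ALDH1L2 was called higher with 2-DG on day 7 (4.05 ± 0.24), in the other table, where undifferentiated cells also had over 1 FPKM of it. With HCl on day 5, 5 of 28 were higher and 2 lower, near the 20.0% of all genes called. TYMS (1.62 ± 0.10) and MTHFD1L (1.44 ± 0.11) were among those that rose, and ALDH1L2 averaged 0.56 FPKM with HCl, against 0.12 FPKM in the control, both under the filter's 1 FPKM. In the control of day 7 against undifferentiated cells, 10 of 29 were lower and 2 higher, where 34.9% of all genes were called, led by ALDH1L2 (-4.43 ± 0.25), PRODH (-2.81 ± 0.20), CBS (-2.58 ± 0.09) and GLDC (-2.33 ± 0.12). The median over the list was -0.54 in that comparison, against 0.00 over all genes, and 0.05 with 2-DG on day 5.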

How the data were processed

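Per the labels' protocols, H1 cells were lysed in RNAiso Plus, and 1 µg of total RNA per sample went into VAHTS Universal V8 libraries. The submitters' processing notes name cutadapt 1.9.1, HISAT2 2.0.1, HTSeq 0.6.1 and GRCh37, without settings. The authors deposited 2 tables with gene counts and FPKM per library. FPKM recomputed from the deposited counts and exonic lengths had a median ratio of 1 to the deposited values. How reads shared by near-copies were counted is not given in the sources used here.

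A gene was kept when 2 or more libraries of its table reached 1 FPKM (17286 genes on days 3 and 5, 18451 otherwise). Deposited counts were TMM-scaled, and edgeR 4.0.16 in R 4.3.3 fitted a robust quasi-likelihood model to each table with 1 mean per group. The scripts were tested on simulated data. Standard errors are the size of the log2 fold change over the root of F. The biological coefficient of variation was 0.119 and 0.0669. Likeness used Pearson r of group means of log2(FPKM + 1).

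All 10 genes are named. Of other pathway genes, up to 4 called are named by size of change in the comparisons described, and for ASNS the 5 genes most like it. CBS and GOT1 with 2-DG on day 5, MTHFD1L with 2-DG on days 7 and 11, and the genes of the closing observations were named after their values were seen. The genes, the lists and the tests were chosen with earlier results of these data known. Alternatives were DESeq2 1.42.0, RLE size factors, no filter, each day alone, a replicate block, each library left out, the adjusted p alone, and a fit without the 2-DG libraries of day 3. The result of a single gene that the naming rule would have included is not reported here.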

Additional observations from a re-analysis of the deposited data

Results flagged for a closer look

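The listed genes had a treatment effect that differed between days when the difference itself was tested as an interaction, with edgeR's adjusted p under 0.05 and a log2 difference of at least 1. The effect of HCl on day 5 minus that on day 3 was 2.51 for ASNS, 2.51 for MTHFD2, 1.85 for PSAT1 and 1.6 for SHMT2. On day 11 minus day 7 the HCl effect differed by -1.19 for ASNS, -2.2 for MTHFD2, -1.03 for PHGDH and -2.02 for PSAT1. The PHGDH difference was -0.93 without replicate 2 of the control of day 11 and -0.99 either without replicate 1 of HCl of day 7 or with no filter on low values, each short of a call. For NaHCO3, the difference between days 11 and 7 was 1.32 for CTH.

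The effect of 2-DG on day 5 minus that on day 3 was 1.91 for ASNS, 1.87 for CTH, 2.04 for MTHFD2, 2.09 for PSAT1, 1.3 for PYCR1 and 1.18 for SHMT2, and it was -1.5 for PHGDH. This contrast rests on the 2 libraries of day 3 that lay apart, and 7 genes were called with either of them left out. On day 11 minus day 7 the 2-DG effect differed by -2.39 for ASNS, -1.11 for MTHFD2, -1.86 for PHGDH, -2.39 for PSAT1 and -1.49 for SHMT2.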

How the results depend on the processing

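Of 320 results (10 genes in 32 comparisons), 72 were called. No called result changed direction under any alternative run, 7 lost the call under at least 1 alternative, and 110 gained one when the adjusted p was used alone. With the adjusted p alone, the number of genes called was 6, 7 and 6 for HCl on days 3, 7 and 11, 4, 4, 5 and 6 for NaHCO3 on days 3, 5, 7 and 11, 2, 8 and 8 for IWP2 on days 5, 7 and 11, 3, 7 and 5 for NaHCO3 added to IWP2 on the same days, and 7 and 8 for 2-DG on days 7 and 11. It was 8 for the control of day 5 against day 3, 10 for day 7 against day 0 and 7 for day 11 against day 7. For the interactions it was 8 for HCl between days 11 and 7, 2 and 4 for NaHCO3 (days 5 and 3, days 11 and 7) and 2 for IWP2 between days 11 and 7. For HCl on day 3 the count of 1 was 0 without the 2-DG libraries of day 3, with day 3 alone and with no filter. For the control of day 5 against day 3 the count of 3 was 1 with DESeq2, RLE size factors, no filter or the fit without those libraries, and NaHCO3 on day 7 had 1 with no filter. With 1 library left out, counts ran from 0 to 1 for HCl on day 3, 1 to 2 for NaHCO3 on day 7, IWP2 on day 11 and 2-DG on day 11, 1 to 3 for the control of day 5 against day 3, and 0 to 1 for the NaHCO3 interaction of days 5 and 3. The fit with the replicate number as a block changed 0 of the 320 calls. Replicates with the same number showed little shared deviation. The median correlation of their deviations was 0.0063 over 66 pairs of groups and -0.0053 over 78. The correlations ranged from -0.11 to 0.293 over the 66 pairs and from -0.0595 to 0.0647 over the 78. Whether some groups shared a batch was not tested. Precision is limited by 2 libraries a group, and for CTH also by counts down to 58.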

Other observations

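Some other genes of the same pathways, picked here after their values were seen, differed with IWP2, HCl and 2-DG on days 7 and 11. GOT1, the cytosolic aspartate aminotransferase, was called higher with IWP2 on day 7 (mean 114 FPKM with IWP2, against 19.6 FPKM in the control, log2 fold change 2.63 ± 0.11). With 2-DG it averaged 91.6 FPKM on day 7, against 24.1 FPKM without it, and 86.5 FPKM on day 11, against 15.5 FPKM. With NaHCO3 added to IWP2 it was lower, by -2.30 ± 0.10 on day 7 and by -2.15 ± 0.11 on day 11. GLUL, which makes glutamine from glutamate, fell by 1.40 with 2-DG and by 1.48 with IWP2 on day 7, and averaged 143 FPKM with NaHCO3 on day 11, against 52.7 FPKM in the control. GLUD1, which turns glutamate into 2-oxoglutarate, averaged 31.8 FPKM with HCl on day 11, against 107 FPKM in the control (-1.67 ± 0.08). Of the other pathway genes tested, GLDC changed most with IWP2 on day 7 (1.39 FPKM with IWP2, against 10.8 FPKM in the control, -2.86 ± 0.15), and PRODH, the first enzyme of proline breakdown, changed most with HCl on day 11 (0.085 FPKM with HCl, against 1.01 FPKM in the control, -3.44 ± 0.32). On day 11, GOT1 averaged 80.4 FPKM with HCl and 72 FPKM with IWP2, against 22.5 FPKM in the control. The summed heart muscle genes of the day 11 groups with 2-DG, HCl or IWP2 were at 3816 FPKM or more. The part of cell makeup in these values was not tested.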
